A study of Mus musculus with 16 samples.

Results

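The livers of 8 adult female C57BL/6J mice, exposed in the womb to bisphenol A (BPA) or to corn oil as the control, were compared by RNA sequencing. They were chosen by their labels alone, as the 4 BPA daughters (animals 1, 8, 9 and 14) and the 4 corn oil daughters (animals 1, 4, 17 and 18), out of 16 livers in the series. The other 8 livers came from sons of the same strain, 4 BPA and 4 corn oil, and entered the same model. All animals were 24 weeks old, and per the labels the offspring met BPA in the womb and at no other time. Whole liver was frozen and its total RNA was sequenced after ribosomal RNA was removed with Ribo-Zero Gold. The dose, the route, the litters, any pooling and the sequencing runs are not stated in the labels, so p-values measure the spread between these animals, and littermates would make them too small.

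BPA is a monomer of polycarbonate plastics and epoxy resins that binds oestrogen receptors weakly and crosses the placenta. The liver clears it mainly by adding glucuronic acid, and also sulphate. Liver genes are zoned along the lobule: periportal hepatocytes make glucose and urea, and pericentral hepatocytes, under Wnt signals from the central vein, make glutamine and carry much of the cytochrome P450 and bile acid synthesis.

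Levels are given as CPM, a gene's count per 1000000 counts of its library after TMM scaling, and changes as log2 of BPA over control with the standard error (SE) of the model; plus-minus signs on CPM are standard deviations (SD) over 4 animals. Of 24062 genes in the table, 13482 passed the expression filter, and 1366 of them rose and 1407 fell in BPA daughters at an adjusted p under 0.05 (edgeR). These 2773 genes were 20.6% of those tested, with 10.1% rising and 10.4% falling, and every gene list below is read against those shares. Most changes were small: 66.9% of the called genes moved by less than 1.5-fold, 159 rose and 68 fell by at least 2-fold. The 4 BPA values all lay above the 4 control values in 1615 genes and all below them in 1708, together 24.6% of the tested genes. BPA libraries were deeper, at 28589757 to 32242553 counts against 19360584 to 26792194 in controls (ratio 1.35, exact permutation p = 0.0286, two-sided, the smallest that 4 against 4 allows). Thinning every library to the shallowest gave 1320 rises and 1360 falls. Calls also moved with the make-up of the transcripts, as the plot by exon length and GC content shows. Of genes with under 1000 exon bases, 23.2% rose and 8.0% fell, and of genes with at least 8000 bases, 6.62% rose and 12.6% fell. Of genes with under 40% GC, 5.4% rose and 15.8% fell, and of those with at least 60% GC, 19% rose and 3.61% fell. The called share also went with abundance over the 8 daughters. It was 3.09% of genes under 1 CPM, 11% at 1 to 5, 22.4% at 5 to 25, 30.2% at 25 to 100 and 28.4% at 100 CPM or more. Lists of abundant and of scarce genes are therefore not on equal terms against the 20.6%. A fit with GC and length corrected in each library, added after the data were seen, called 1149 rises and 1495 falls and kept 2281 of the 2773 calls.

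**Figure D1:**
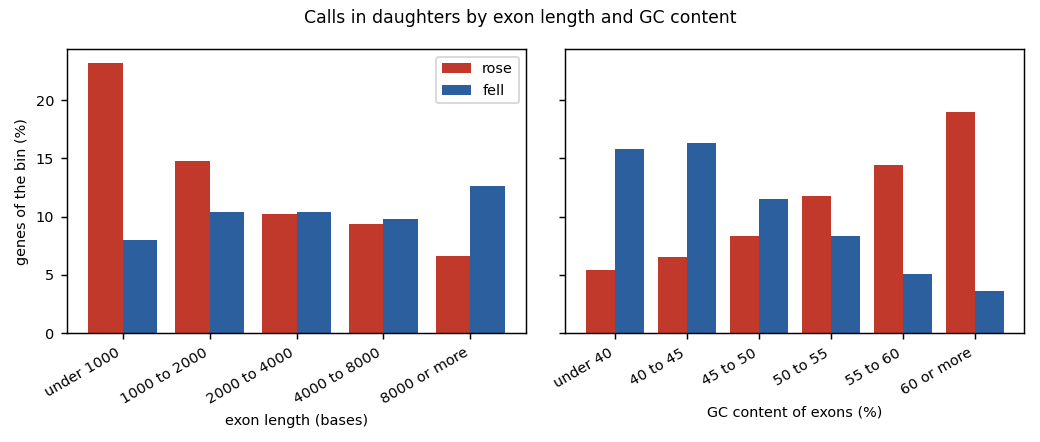
Percent of tested genes that rose (red) and fell (blue) in BPA daughters, by total exon length in bases (left) and GC content of the exons in percent (right). The share that rose goes from 23.2% in the shortest to 6.62% in the longest genes, and from 5.4% in the lowest to 19% in the highest GC bin.

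Hepatocyte transcripts filled these libraries in both groups. The 15 hepatocyte markers summed to 165000 to 190000 CPM in controls and 162000 to 182000 CPM in BPA daughters, with Alb, the albumin gene, between 88302 and 104237 CPM in all 8 daughters (adjusted p = 0.835). Of that list 3 rose and 2 fell of 15 tested: Trf, Ttr and the asialoglycoprotein receptor Asgr1 (0.32) were higher and Apoa1 and Cyp2e1 lower. Asgr1 overlapped between groups and lost its call in 3 of the 8 fits that left out 1 daughter (highest adjusted p 0.0923, without BPA 14). In the hepatocyte markers list, the 2 members that fell became 0 without control 4. The plot of list counts shows every list of at least 10 tested genes against the shares over all genes.

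**Figure D2:**
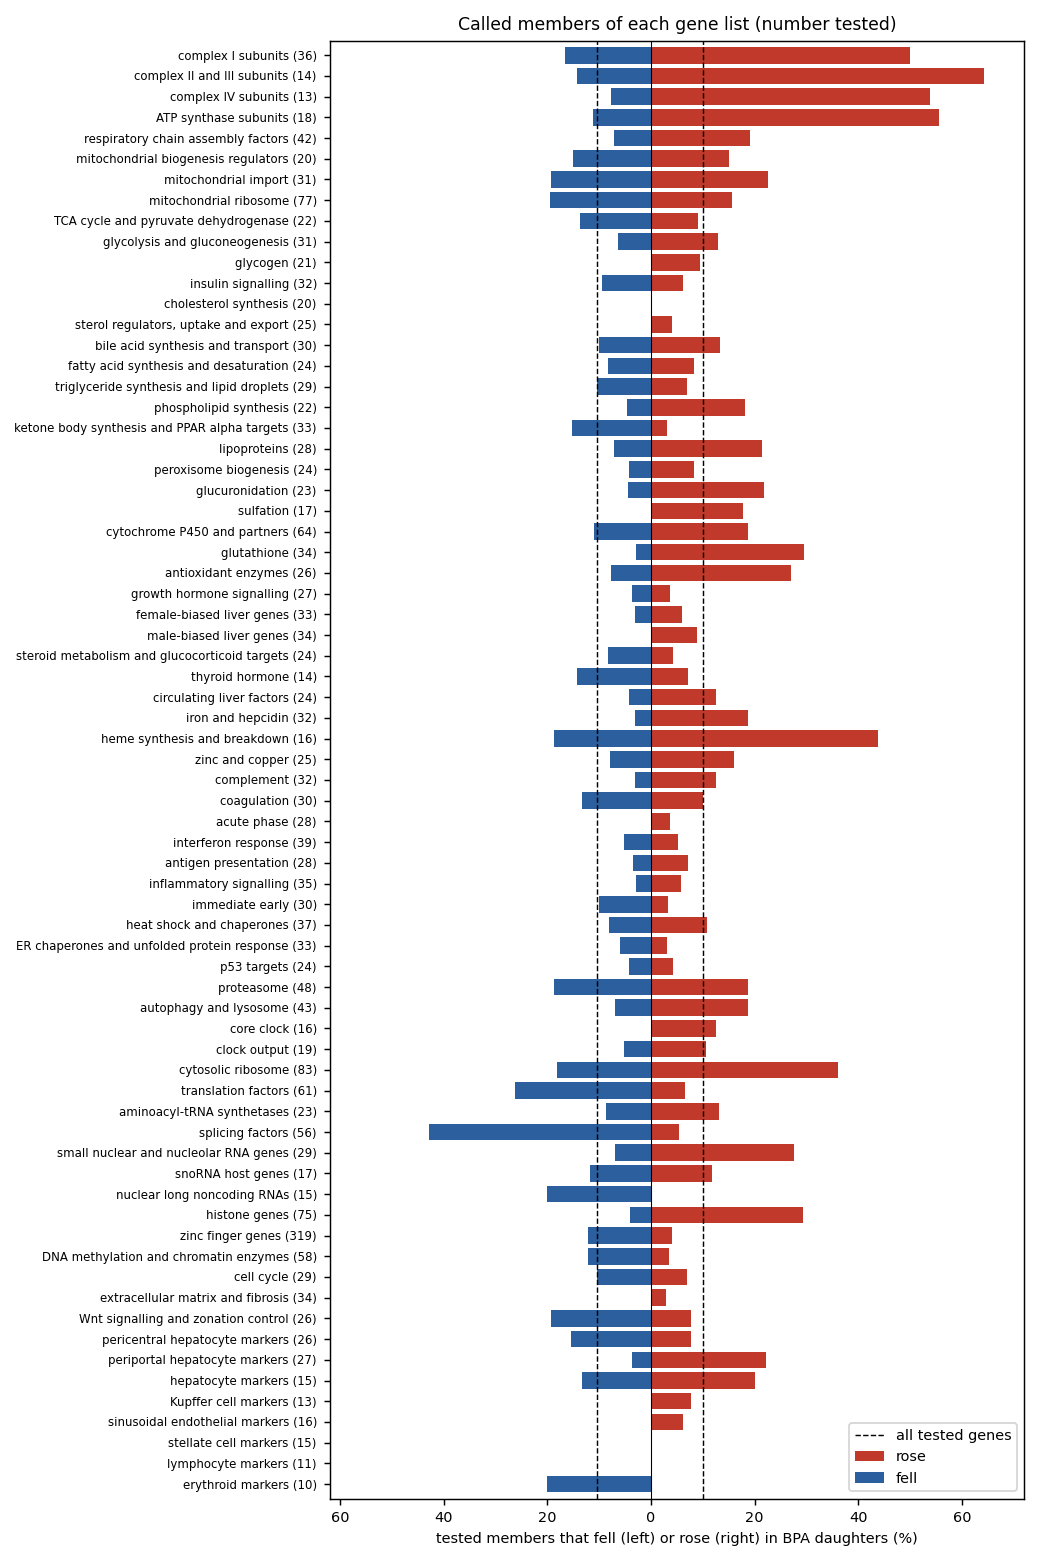
Share of the tested members of each gene list that rose (red, right) or fell (blue, left) in BPA daughters, in percent, with the number tested in brackets and the shares over all tested genes as dashed lines. The respiratory chain lists reach furthest right and the splicing factors furthest left, while cholesterol synthesis and the stellate and lymphocyte markers hold no called gene.

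The genes of lowest p were for the most part general cell genes whose 4 animals lay close together. Rpl39, a protein of the large ribosomal subunit, stood at 22.8, 23, 27.7 and 23.3 CPM in control daughters. BPA daughters had 50, 53.1, 52.8 and 57.2 CPM, so that the lowest BPA liver was above the highest control (log2 change 1.14 ± 0.09, adjusted p = 1.7e-06). Shfm1, a small proteasome and DNA repair protein gene (chromosome 6, 6557294 to 6578663, GRCm38), stood at 66.9, 68.6, 69.6 and 71.4 CPM in control daughters. BPA daughters had 38.3, 35, 38.1 and 38.6 CPM (log2 change −0.88 ± 0.06, adjusted p = 9.55e-07). The groups did not overlap in either gene. The rest of the 10 rises of lowest p were Atp5e (1.09), Ndufa4 (0.75), Cox5a (0.80), Atp5l (0.84), Tmem256 (0.86), Myeov2 (0.96), Ddx6 (1.16), Fam120b (1.32) and Aspg (0.92), of which the first 4 are respiratory chain genes, Ddx6 is an RNA helicase of mRNA decay and Aspg a lysophospholipase and asparaginase. The rest of the 10 falls were Rab8a (−0.82), S100a1 (−0.71), B2m (−0.86), Ddrgk1 (−0.72), Dnajc8 (−0.97), H3f3b (−1.25), Hnrnpul1 (−0.63), Ndufs6 (−0.78) and Snx4 (−0.60), which include the trafficking GTPase Rab8a and the replacement histone H3f3b. All 20 were called in each of the 8 fits that left out 1 daughter.

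Among abundant secreted proteins, some carriers were higher and some apolipoproteins lower. Gc, the vitamin D carrier, rose from 5155 ± 136 to 6110 ± 386 CPM and Ttr, the carrier of thyroxine and of retinol binding protein, from 2707 ± 367 to 3796 ± 654 CPM. Apoh, Ambp, F2 and the ATP synthase subunit Atp5b also rose, by 0.26 to 0.40 on the log2 scale. Apoa1 and Apoa2, the main proteins of high-density lipoprotein, fell from 8987 ± 2024 to 6253 ± 1071 CPM and from 6042 ± 599 to 4825 ± 795 CPM, with overlapping groups. Sepp1, the selenium carrier, fell from 7740 ± 403 to 6483 ± 293 CPM, and Cat, the catalase gene, from 2962 ± 63.7 to 2405 ± 320 CPM. Fabp1, the fatty acid carrier of hepatocytes, fell from 6320 ± 1055 to 3944 ± 726 CPM with no overlap, and its 8 livers span 3200 to 7316 CPM. Apoa2 lost its call in 6 of the 8 fits that left out 1 daughter (highest adjusted p 0.138, without control 18) and Sepp1 in 6 (0.0828, without control 18). Ambp lost it in 5 (0.0772, without control 17) and Apoa1 in 5 (0.16, without control 4). Gc lost it in 2 fits (0.0534, without control 4) and Cat in 2 (0.0505, without BPA 9). Apoh lost it in 1 (0.0549, without control 17).

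Single genes of both ends of the lobule changed, while the share of called zonation markers was near the 20.6% over all genes (23.1% of the pericentral and 25.9% of the periportal markers). Gls2, the glutaminase of periportal hepatocytes (chromosome 10, 128194457 to 128210004), stood at 101, 171, 120 and 146 CPM in control daughters. BPA daughters had 402, 308, 276 and 311 CPM. Every BPA liver was above every control (log2 change 1.27 ± 0.25, adjusted p = 0.00233). Glul, the glutamine synthetase of the hepatocytes next to the central vein (chromosome 1, 153899944 to 153909723), stood at 1308, 1067, 1683 and 1426 CPM in control daughters. BPA daughters had 490, 844, 692 and 934 CPM, with no overlap in the other direction (log2 change −0.89 ± 0.17, adjusted p = 0.00172). These enzymes release and make glutamine at opposite ends of the lobule. Axin2, a Wnt target, went from 19.7 ± 4.11 to 10.3 ± 2.18 CPM (log2 change −0.94 ± 0.28, adjusted p = 0.0256). Rspo3, the Wnt amplifier made by central vein endothelium, stood at 14.7, 14.8, 17.8 and 14.3 CPM in control daughters. BPA daughters had 9.31, 10.9, 10.3 and 10.8 CPM (log2 change −0.58 ± 0.11, adjusted p = 0.00152), with all 4 BPA livers below all controls. Fzd7, a Wnt receptor, and Lrp5, a Wnt co-receptor, fell too (−0.60 and −0.27), and Ctnnb1, beta-catenin itself, rose (0.28). Across the list of Wnt signalling and zonation control, 2 rose and 5 fell of 26 tested (median log2 change −0.15). Of the pericentral markers, 2 rose and 4 fell of 26 tested (median log2 change 0.05, with 15 of 26 above 0): Cyp2e1, the ethanol-oxidising P450, fell from 8224 ± 734 to 5855 ± 1733 CPM, BPA animal 1 being lowest at 3457, and Cpox, of heme synthesis, fell (−0.65), while Cyp2c29 and Gstm1 rose (0.42 and 0.46). Of the periportal markers, 6 rose and 1 fell of 27 tested (median log2 change 0.26), and their summed level was 33000 to 36700 CPM in controls and 41300 to 42900 CPM in BPA daughters. Without Trf, the transferrin gene, the periportal sums overlapped, at 21500 to 27500 CPM in controls and 25300 to 28900 CPM in BPA daughters. The pericentral sums also overlapped, at 15100 to 19700 CPM in controls and 9950 to 20200 CPM in BPA daughters. Aldh1b1, a mitochondrial aldehyde dehydrogenase, stood at 27.5, 17, 20.5 and 16.5 CPM in control daughters. BPA daughters had 79.7, 31.8, 33.2 and 47.9 CPM (log2 change 1.24 ± 0.24, adjusted p = 0.00253), with BPA animal 1 the highest. Fbp1, of gluconeogenesis, went from 675 ± 118 to 1018 ± 234 CPM (log2 change 0.59 ± 0.15, adjusted p = 0.0129), and Trf, transferrin, from 10932 ± 1337 to 15136 ± 1937 CPM. Hsd17b13, a lipid droplet enzyme on the periportal list, fell (log2 change −0.61 ± 0.13, adjusted p = 0.00406). The plot of zonation markers shows that most members of either list did not pass the test. In whole liver, fewer cells of a type and less RNA per cell cannot be told apart. Glul, Gstm1 and Trf had at least 20% of the exon sequence overlapped by or shared with other genes, so the counts of these genes are uncertain. Lrp5 lost its call in 7 of the 8 fits that left out 1 daughter (highest adjusted p 0.109, without BPA 9) and Cyp2e1 in 6 (0.107, without control 1). Cyp2c29 lost it in 6 (0.126, without control 4) and Axin2 in 5 (0.0726, without BPA 1). Fzd7 lost it in 5 fits (0.0843, without BPA 1). In the Wnt signalling and zonation control list, the 5 members that fell became 1 without control 18. In the pericentral hepatocyte markers list, the 4 members that fell became 2 without control 17.

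**Figure D3:**
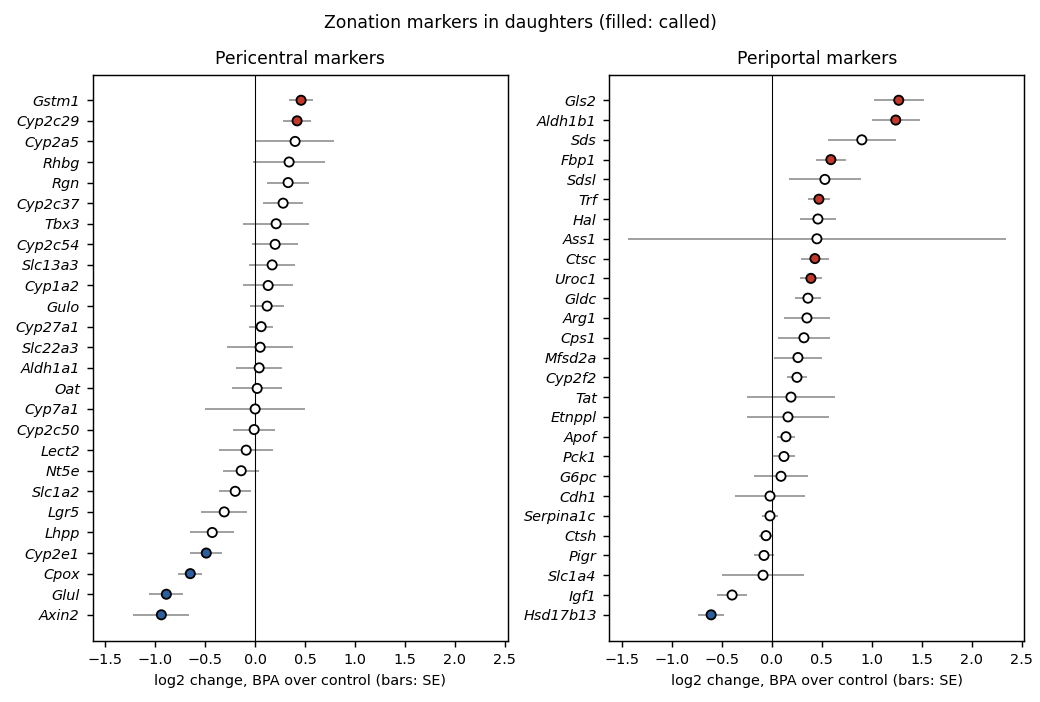
Log2 change, BPA over control daughters, of each tested pericentral (left) and periportal (right) hepatocyte marker; bars are the standard error of the model, red points rose, blue points fell and open points were not called. Glul and Axin2 lie lowest on the left and Gls2 and Aldh1b1 highest on the right.

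Of the metallothioneins, cysteine-rich proteins that bind zinc and copper, Mt1 fell and Mt2 did not pass. Mt1 (chromosome 8, 94179082 to 94180327) stood at 307, 361, 206 and 255 CPM in control daughters. BPA daughters had 87, 46.5, 69.4 and 47 CPM. Every BPA liver was far below every control (log2 change −2.18 ± 0.46, adjusted p = 0.00506). Its neighbour Mt2 stood at 75.9, 72.4, 41.2 and 59.3 CPM in control daughters and 25.8, 12, 20 and 9.81 CPM in BPA daughters, also without overlap, but did not pass the test (log2 change −1.88 ± 0.69, adjusted p = 0.073). Slc30a1, the zinc exporter of the plasma membrane, stood at 63.3, 69.6, 53.1 and 60.1 CPM in control daughters. BPA daughters had 46.2, 40.3, 46.6 and 41.1 CPM (log2 change −0.50 ± 0.14, adjusted p = 0.0184). These genes are known targets of the zinc-sensing factor MTF1, which binds metal response elements, so the 250 bases before each RefSeq start (GRCm38.p6, plus strand for all 3) are shown, 5′ to 3′, with matches to the core in capitals. The core was searched as TGCACNC and TGCGCNC on both strands.
Mt1, chr8:94178839-94179088: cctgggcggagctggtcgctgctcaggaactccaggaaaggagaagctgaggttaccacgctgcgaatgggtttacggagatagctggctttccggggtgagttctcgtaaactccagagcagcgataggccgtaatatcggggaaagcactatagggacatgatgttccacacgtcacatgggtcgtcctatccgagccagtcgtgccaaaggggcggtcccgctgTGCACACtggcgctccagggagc
Mt2, chr8:94172368-94172617: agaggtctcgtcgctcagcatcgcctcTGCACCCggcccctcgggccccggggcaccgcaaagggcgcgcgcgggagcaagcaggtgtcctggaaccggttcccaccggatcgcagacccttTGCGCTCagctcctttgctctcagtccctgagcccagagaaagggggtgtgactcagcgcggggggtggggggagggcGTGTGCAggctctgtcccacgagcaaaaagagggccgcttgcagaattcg
Slc30a1, chr1:191906531-191906780: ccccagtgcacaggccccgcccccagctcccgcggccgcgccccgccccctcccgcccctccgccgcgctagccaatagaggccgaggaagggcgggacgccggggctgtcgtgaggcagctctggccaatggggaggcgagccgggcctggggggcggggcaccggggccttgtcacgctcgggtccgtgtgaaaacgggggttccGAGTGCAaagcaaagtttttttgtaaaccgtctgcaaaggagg
Mt1 and Slc30a1 have 1 match each in this window and Mt2 has 3. The window rests on the annotated start and bases outside it were not searched, so these are not counts over whole promoters. Of all 32851 RefSeq promoter windows of this length, 21.4% hold at least 1 match and 1.26% at least 3. Of the zinc and copper list, 4 rose and 2 fell of 25 tested (median log2 change 0.08); the rises were the copper chaperone Atox1 (log2 change 0.61 ± 0.11, adjusted p = 0.000953), Commd1, of copper export, and Slc39a7, a zinc transporter of the endoplasmic reticulum (0.41 and 0.29). Mtf1, the zinc-sensing factor itself, was the other rise (0.34) and is named after its value was seen. The change of Mt1 in sons was −0.14 ± 0.44, and the difference between the sexes had unadjusted p = 0.00676, adjusted p = 0.527. Mt2 and Slc39a7 had at least 20% of the exon sequence overlapped by or shared with other genes, so the counts of these genes are uncertain. Slc39a7 lost its call in 6 of the 8 fits that left out 1 daughter (highest adjusted p 0.147, without BPA 1) and Slc30a1 in 3 (0.0589, without control 4). In the zinc and copper list, the 4 members that rose became 2 without control 17. The summed level of that list was lower in BPA daughters without overlap, at 2320 to 2710 CPM against 2800 to 3160 CPM in controls.

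Single iron and heme genes changed. The share of called genes was near the 20.6% over all genes in the iron list (21.9%) and above it in the heme list (62.5%). Slc40a1, ferroportin, which exports iron from cells, stood at 125, 118, 103 and 118 CPM in control daughters. BPA daughters had 232, 181, 187 and 181 CPM, and every BPA liver was above every control (log2 change 0.75 ± 0.16, adjusted p = 0.00447). Tmprss6, the protease that lowers hepcidin signalling, went from 187 ± 10.1 to 285 ± 34.9 CPM (log2 change 0.60 ± 0.10, adjusted p = 0.000434), Tfr2, a sensor of bound transferrin, from 279 ± 23.9 to 349 ± 28 CPM, and Ftl1, ferritin light chain, from 1182 ± 95.7 to 1679 ± 57.4 CPM. Hamp, hepcidin itself, stood at 303, 497, 179 and 324 CPM in control daughters and 266, 207, 213 and 198 CPM in BPA daughters and did not pass (adjusted p = 0.257). Of the iron list, 6 rose and 1 fell of 32 tested, and the summed level did not overlap, at 18900 to 21700 CPM in controls and 23100 to 27500 CPM in BPA daughters, with transferrin its most abundant member. Without transferrin the sums were 8390 to 9690 CPM in controls and 9870 to 11400 CPM in BPA daughters. With GC and length corrected, 4 rose and 1 fell in the iron list. Of heme synthesis and breakdown, 7 rose and 3 fell of 16 tested (median log2 change 0.24), and with GC and length corrected 3 rose and 3 fell. Tspo, a protein of the outer mitochondrial membrane, went from 13.1 ± 1.06 to 24.7 ± 1.66 CPM (log2 change 0.92 ± 0.09, adjusted p = 1.03e-05), and the glycine carrier Slc25a38, Blvra and Urod rose (Slc25a38 0.59, Blvra 0.47 and Urod 0.23). Alas1, the first and rate-limiting step, fell from 605 ± 141 to 385 ± 69.1 CPM with overlapping groups (adjusted p = 0.0322). Ftl1 and Hamp had at least 20% of the exon sequence overlapped by or shared with other genes, so the counts of these genes are uncertain. Urod lost its call in 5 of the 8 fits that left out 1 daughter (highest adjusted p 0.0852, without control 4) and Alas1 in 5 (0.0951, without control 4). Blvra lost it in 4 (0.063, without BPA 9). In the heme synthesis and breakdown list, the 7 members that rose became 2 without control 4. In the heme synthesis and breakdown list, the 3 members that fell became 1 without control 18.

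Both enzymes of bile acid conjugation rose. Slc27a5, which activates bile acids with coenzyme A, stood at 632, 612, 584 and 528 CPM in control daughters and 768, 1024, 994 and 1097 CPM in BPA daughters, with no overlap (log2 change 0.72 ± 0.11, adjusted p = 0.000357), and Baat, which then adds taurine or glycine, at 177, 171, 195 and 166 CPM in control daughters and 207, 267, 275 and 272 CPM in BPA daughters (log2 change 0.53 ± 0.09, adjusted p = 0.000998). BPA animal 1 was the lowest BPA liver in both. Nr0b2, the receptor SHP that represses bile acid synthesis, went from 12.8 ± 4.24 to 28.6 ± 6.8 CPM (log2 change 1.16 ± 0.27, adjusted p = 0.00684). Cyp7a1, the rate-limiting enzyme, ranged from 79.4 to 195 CPM in controls and 74.8 to 185 in BPA daughters (adjusted p = 0.997). Hsd17b4, of peroxisomal side-chain shortening, fell (log2 change −0.52 ± 0.11, adjusted p = 0.0032), as did the organic anion carrier Slco2b1 (−0.29). Of the list, 4 rose and 3 fell of 30 tested. The remaining calls, named after their values were seen, were Abcb11, the canalicular export pump, which rose (0.38), and Slc10a1, the uptake carrier of the blood side, which fell (−0.38).

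Cholesterol synthesis held no called gene among 20 tested with edgeR (2 at an unadjusted p under 0.05), 1 with DESeq2 and 0 with limma-voom, and of sterol regulators, uptake and export 1 rose and 0 fell of 25 tested, the rise being Npc2 (0.45), which moves cholesterol out of lysosomes. Insig2, Lrp1, Sc5d, Srebf1 and Srebf2 did not pass, at adjusted p between 0.21 and 0.92. Fatty acid synthesis was mixed (2 rose and 2 fell of 24 tested): Scd2, a desaturase outside the main liver form, rose (log2 change 1.15 ± 0.33, adjusted p = 0.0261), as did the citrate carrier Slc25a1 (0.29), while the elongase Elovl5 and the desaturase Fads2, of polyunsaturated fatty acids, fell (−0.34 and −0.37). Fasn and Scd1 did not pass (adjusted p of 0.57 and 0.46). Both enzymes of the last step of triglyceride synthesis rose, Dgat2 at 191, 167, 193 and 192 CPM in control daughters and 249, 268, 251 and 342 CPM in BPA daughters (log2 change 0.58 ± 0.11, adjusted p = 0.00188) and Dgat1 from 16.1 ± 2.09 to 23.9 ± 3.22 CPM (log2 change 0.58 ± 0.13, adjusted p = 0.0061). Of the triglyceride and lipid droplet list 2 rose and 3 fell of 29 tested, the falls being Fabp1, Hsd17b13 and Hsd17b11 (−0.46). Its summed level, which includes Fabp1, was lower without overlap, at 10500 to 12800 CPM in controls and 7440 to 9770 CPM in BPA daughters. Phospholipid synthesis rose in Pemt and Ptdss1, which make phosphatidylcholine and phosphatidylserine, and in Chka and Pgs1, and fell in Lclat1 (Pemt 0.33, Ptdss1 0.33, Chka 0.71, Pgs1 0.53 and Lclat1 −0.52; 4 rose and 1 fell of 22 tested). Of ketone body and PPAR alpha target genes 18.2% were called, below the share over all genes (1 rose and 5 fell of 33 tested; median log2 change −0.16). Vnn1, a pantetheinase, stood at 379, 325, 380 and 368 CPM in control daughters. BPA daughters had 133, 228, 279 and 255 CPM (log2 change −0.70 ± 0.18, adjusted p = 0.0129), and Acadm, of medium-chain oxidation, Acat1 and Cyp4a32 fell (Acadm −0.42, Acat1 −0.33 and Cyp4a32 −0.60). Of peroxisome biogenesis 2 rose and 1 fell of 24 tested (Pex6 0.53, Pex26 0.51 and Pex3 −0.33). Cyp4a32 had at least 20% of the exon sequence overlapped by or shared with other genes, so the counts of this gene are uncertain. Fads2 lost its call in 6 of the 8 fits that left out 1 daughter (highest adjusted p 0.143, without control 1) and Scd2 in 4 (0.0746, without control 18). Slc25a1 lost it in 3 (0.0634, without control 1) and Elovl5 in 3 (0.0707, without BPA 8). Acat1 lost it in 3 fits (0.0595, without control 18). In the ketone body synthesis and PPAR alpha targets list, the 5 members that fell became 3 without control 18.

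Lipoprotein genes were split. Apoc3, an inhibitor of triglyceride clearance, stood at 557, 583, 505 and 553 CPM in control daughters. BPA daughters had 691, 792, 802 and 953 CPM (log2 change 0.56 ± 0.09, adjusted p = 0.000302). Apoc4 and Apom stood at 299 to 308 and 130 to 146 CPM in controls against 367 to 490 and 183 to 208 in BPA daughters (0.44 and 0.48). None of these 3 overlapped. Sar1b, of lipoprotein export from the endoplasmic reticulum, rose by 0.26, and of the list 6 rose and 2 fell of 28 tested, the falls being Apoa1 and Apoa2. Both falls overlapped between groups, and the 2 members that fell became 0 without control 4.

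Carbohydrate and insulin genes were near or under the background. Of glycolysis and gluconeogenesis 4 rose and 2 fell of 31 tested, with Gckr, the regulator of glucokinase, and Pgk1 up beside Fbp1 (0.46 and 0.29) and Gpi1 and the pyruvate dehydrogenase kinase Pdk2 down (−0.33 and −0.49). Pck1 and G6pc did not pass (adjusted p of 0.47 and 0.86). Of glycogen genes 2 rose and 0 fell of 21 tested: Stbd1, which tethers glycogen to membranes, with 109 CPM in BPA animal 14 against 54.1 to 68.8 in the other three, and Pgm2 (0.68 and 0.26). Of insulin signalling 2 rose and 3 fell of 32 tested: Foxo4 (0.43) and Tsc1 (0.28) rose and the S6 kinase Rps6kb1, Akt2 and the receptor inhibitor Grb14 fell (Rps6kb1 −0.48, Akt2 −0.21 and Grb14 −0.33). In the tricarboxylic acid cycle 2 rose and 3 fell of 22 tested; Mdh1, the cytosolic malate dehydrogenase, stood at 261, 236, 256 and 267 CPM in control daughters. BPA daughters had 380, 425, 372 and 456 CPM (log2 change 0.68 ± 0.08, adjusted p = 3.54e-05) and Dlat rose (0.24), while Dld, Pdhx and Sucla2 fell (Dld −0.54, Pdhx −0.50 and Sucla2 −0.28). Dlat, Dld and Pdhx are subunits of 1 complex, pyruvate dehydrogenase, and so moved in both directions. Pgk1 and Gpi1 had at least 20% of the exon sequence overlapped by or shared with other genes, so the counts of these genes are uncertain. Tsc1 lost its call in 6 of the 8 fits that left out 1 daughter (highest adjusted p 0.0914, without control 17) and Pgk1 in 5 (0.0928, without BPA 8). Pdk2 lost it in 5 (0.0772, without BPA 1) and Akt2 in 5 (0.0985, without control 4). Pgm2 lost it in 4 fits (0.0765, without BPA 14) and Stbd1 in 2 (0.0675, without control 4). Gpi1 lost it in 1 (0.059, without control 18) and Grb14 in 1 (0.0513, without control 4). In the glycolysis and gluconeogenesis list, the 4 members that rose became 2 without control 1. In the insulin signalling list, the 3 members that fell became 1 without control 4.

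The respiratory chain lists held many called genes. Complex I, complex III and ATP synthase too held subunits that moved in opposite directions. Of complex I 18 rose and 6 fell of 36 tested; Ndufa2 stood at 17.9, 18, 21 and 15.3 CPM in control daughters and 32.7, 37.3, 33.3 and 46 CPM in BPA daughters (log2 change 1.05 ± 0.11, adjusted p = 2e-05) and Ndufs6 at 52.2, 54.9, 57.4 and 55.7 CPM in control daughters and 29.9, 32.7, 31.7 and 33.6 CPM in BPA daughters (log2 change −0.78 ± 0.07, adjusted p = 7.62e-06), neither with overlap. Of complexes II and III 9 rose and 2 fell of 14 tested, Uqcrb falling (log2 change −0.66 ± 0.06, adjusted p = 8.22e-06) beside rises of Sdhb, Uqcr10, Uqcrfs1 and Uqcrq (Sdhb 0.56, Uqcr10 0.61, Uqcrfs1 0.52 and Uqcrq 0.57). Of complex IV 7 rose and 1 fell of 13 tested, with Cox7a2l down and Cox7b and Cox7c up (Cox7a2l −0.65, Cox7b 0.41 and Cox7c 0.72). Of ATP synthase 10 rose and 2 fell of 18 tested, with Usmg5 down and Atp5g2 and 2010107E04Rik up (Usmg5 −0.75, Atp5g2 0.65 and 2010107E04Rik 0.79). The remaining complex I rises named here were Ndufb11 (0.66), Ndufc1 (0.70) and Ndufc2 (0.67). With GC and length corrected, 14 rose and 7 fell in complex I, 9 rose and 1 fell in complexes II and III, 5 rose and 1 fell in complex IV and 10 rose and 3 fell in ATP synthase. The median log2 change of complex IV went from 0.27 to −0.01 with the correction. The medians of complex I (0.2 to 0.15), complexes II and III (0.44 to 0.32) and ATP synthase (0.37 to 0.34) stayed positive. Assembly factors (8 rose and 3 fell of 42 tested) rose in Cox14 (1.02), Nubpl (0.74), Tmem126b (0.55) and Uqcc2 (0.48) and fell in Cox20 (−0.82). Import proteins (7 rose and 6 fell of 31 tested) rose in Timm13 (0.40), Timm9 (0.57) and Pam16 (0.78) and fell in Timm44 (−0.29) and Tomm6 (−0.83), and mitochondrial ribosomal proteins (12 rose and 15 fell of 77 tested) rose in Mrpl36 (0.72) and Mrps14 (0.82) and fell in Mrpl41 (−0.73), Mrpl42 (−0.56) and Mrps15 (−0.50). Of the regulators of mitochondrial biogenesis 3 rose and 3 fell of 20 tested: the receptor Esrra stood at 11.5, 12.1, 13.1 and 10.8 CPM in control daughters. BPA daughters had 20.2, 17, 14.8 and 15.8 CPM (log2 change 0.52 ± 0.12, adjusted p = 0.00806), the DNA polymerase Polg and Slirp rose, and the activator Gabpa and the DNA-binding Ssbp1 fell (Polg 0.26, Slirp 0.44, Gabpa −0.40 and Ssbp1 −0.54). Ppargc1a, the coactivator PGC-1 alpha, stood at 35.3, 73.3, 21.9 and 34.7 CPM in control daughters and 28.8, 24.1, 23 and 15.4 CPM in BPA daughters and did not pass (adjusted p = 0.177). Uqcrb, Cox7c, Atp5g2, Ndufb11, Cox20, Pam16, Tomm6, Mrpl41 and Slirp had at least 20% of the exon sequence overlapped by or shared with other genes, so the counts of these genes are uncertain. In the respiratory chain assembly factors list, the 8 members that rose became 4 without control 4. In the respiratory chain assembly factors list, the 3 members that fell became 1 without control 18. In the mitochondrial import list, the 7 members that rose became 4 without control 1. In the mitochondrial ribosome list, the 12 members that rose became 7 without control 4.

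In the lists of glutathione and conjugation, more genes rose than fell. Gss, which completes glutathione synthesis, stood at 36.5, 43.2, 48.8 and 47.8 CPM in control daughters. BPA daughters had 66.5, 59.5, 54.5 and 67.7 CPM, without overlap (log2 change 0.49 ± 0.13, adjusted p = 0.0115). Chac2, which breaks glutathione down, went from 12.1 ± 1.33 to 18.2 ± 3.76 CPM, and the transferase Gstt3 from 25.3 ± 3.16 to 39.7 ± 8.99 CPM. Gsta1 and Gsta2, close copies inducible by electrophiles, went from 1.77 ± 0.86 to 5.81 ± 2.11 CPM and from 8.03 ± 3.02 to 21.7 ± 6.36 CPM. Of the glutathione list 10 rose and 1 fell of 34 tested (median log2 change 0.27), and its summed level did not overlap, at 4940 to 5630 CPM in controls and 5840 to 7490 CPM in BPA daughters; in sons 2 rose and 0 fell. Prdx4, a peroxidase of the endoplasmic reticulum, stood at 32.5, 27.6, 37.8 and 32.9 CPM in control daughters. BPA daughters had 63.4, 52.2, 57.6 and 60.3 CPM (log2 change 0.84 ± 0.10, adjusted p = 4.18e-05), and the other named antioxidant rises were Prdx1 (0.55), Prdx3 (0.46), Txn1 (0.49) and Txnrd2 (0.53) (7 rose and 2 fell of 26 tested). Summed antioxidant levels overlapped, at 12800 to 14100 CPM in controls and 11300 to 13400 CPM in BPA daughters. Cat, the catalase gene, fell, as given above. Ugdh, which makes the glucuronic acid donor, stood at 90.6, 82.7, 103 and 86.8 CPM in control daughters. BPA daughters had 120, 134, 110 and 106 CPM (log2 change 0.38 ± 0.12, adjusted p = 0.0371), and Slc35d1, which carries the donor into the endoplasmic reticulum, fell (log2 change −0.61 ± 0.12, adjusted p = 0.00154). The transferases Ugt2a3, Ugt1a6a and Ugt1a9 rose (Ugt2a3 0.38, Ugt1a6a 0.38 and Ugt1a9 0.77), while Ugt1a1, the bilirubin transferase, did not pass (adjusted p = 0.85). Of the glucuronidation list 5 rose and 1 fell of 23 tested. Of sulfation 3 rose and 0 fell of 17 tested: Sult1d1 stood at 130, 96.1, 113 and 106 CPM in control daughters. BPA daughters had 189, 190, 145 and 207 CPM (log2 change 0.71 ± 0.12, adjusted p = 0.000862), and the bile acid and steroid sulfotransferases Sult2a2 and Sult2a5 went from 86.4 ± 29.1 to 171 ± 25.1 CPM and from 6.32 ± 3.24 to 21.6 ± 5.56 CPM. Of cytochrome P450 genes and partners 12 rose and 7 fell of 64 tested. Cyp3a11, the main drug-oxidising form, stood at 4149, 2548, 3343 and 3482 CPM in control daughters and 7226, 5273, 3987 and 4647 CPM in BPA daughters, BPA animal 9 overlapping control animal 1 (log2 change 0.64 ± 0.18, adjusted p = 0.0213), and Cyp2b10, the classic target of the receptor CAR, at 16, 32.8, 16.1 and 19.6 CPM in control daughters and 67.2, 69.8, 38.3 and 35.8 CPM in BPA daughters (log2 change 1.32 ± 0.38, adjusted p = 0.0238). The other named rises were Cyp2d11 (1.30), Cyp2d40 (0.62), Cyp3a25 (0.72) and Cyp4b1 (0.45), and Cyp1a2 did not pass (adjusted p = 0.756). Cyp4a32, on the same list, fell (−0.60), as did Cyp2e1 among the pericentral markers. The summed level of the P450 list overlapped, at 38200 to 42400 CPM in controls and 32600 to 39500 CPM in BPA daughters. Gsta1, Gsta2, Ugt1a6a, Ugt1a9, Ugt1a1, Sult2a2, Sult2a5, Cyp2d11, Cyp2d40, Cyp3a25 and Cyp4a32 had at least 20% of the exon sequence overlapped by or shared with other genes, so the counts of these genes are uncertain. Ugt1a6a lost its call in 6 of the 8 fits that left out 1 daughter (highest adjusted p 0.0922, without BPA 14) and Ugt1a9 in 6 (0.113, without BPA 8). Ugdh lost it in 5 (0.117, without BPA 8) and Sult2a2 in 5 (0.0787, without control 17). Cyp2b10 lost it in 5 fits (0.0685, without BPA 8) and Ugt2a3 in 3 (0.0723, without control 17). Cyp3a11 lost it in 2 (0.0728, without BPA 1) and Cyp4b1 in 2 (0.0603, without BPA 9). In the glucuronidation list, the 5 members that rose became 0 without control 4. In the sulfation list, the 3 members that rose became 5 without BPA 9. In the cytochrome P450 and partners list, the 12 members that rose became 5 without control 4. In the cytochrome P450 and partners list, the 7 members that fell became 1 without control 17.

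**Figure D4:**
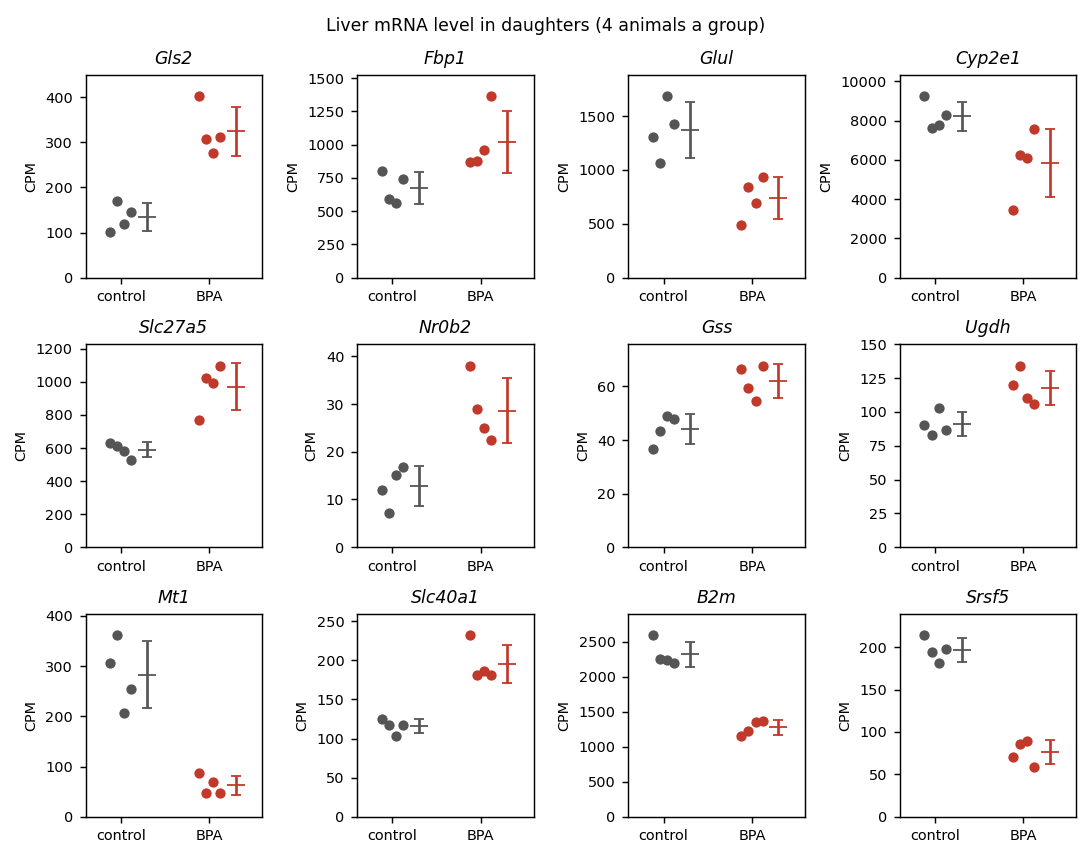
CPM of 12 genes in each of 4 control (grey) and 4 BPA (red) daughters, with the mean and SD beside the points; each axis starts at 0. In all 12 panels, whose genes were picked for display, the BPA and control points do not overlap, as in 24.6% of all tested genes. The gap is narrow in Ugdh and in Cyp2e1, where the lowest control is at 7620 CPM and the highest BPA daughter at 7597 CPM.

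Of the hormone-related lists, the thyroid hormone list was near the 20.6% over all genes (21.4% called). The others were below it, at 7.41% to 16.7%. Hsd11b1, which regenerates active glucocorticoid, stood at 325, 420, 399 and 430 CPM in control daughters and 499, 640, 650 and 687 CPM in BPA daughters, without overlap (log2 change 0.65 ± 0.13, adjusted p = 0.0022), and Hsd17b2, which inactivates oestradiol and testosterone, at 111, 110, 115 and 116 CPM in control daughters and 71.2, 69.3, 94.7 and 88.5 CPM in BPA daughters (log2 change −0.48 ± 0.09, adjusted p = 0.00222). With Hsd17b11 these were all the calls of the steroid list (1 rose and 2 fell of 24 tested). In the growth hormone list (1 rose and 1 fell of 27 tested) Stat5b, the main transducer in liver, rose with overlap and Tox fell (0.64 and −0.88), and Igf1 stood at 379, 512, 331 and 412 CPM in control daughters. BPA daughters had 328, 288, 280 and 343 CPM (adjusted p = 0.0657). Female-biased genes (2 rose and 1 fell of 33 tested) rose in Prom1, at 0.839, 0.813, 1.45 and 0.58 CPM in control daughters and 5.1, 1.96, 5.54 and 2.31 CPM in BPA daughters (log2 change 2.03 ± 0.41, adjusted p = 0.00261), and Sult2a2 and fell in the flavin monooxygenase Fmo1 (−0.38). Male-biased genes (3 rose and 0 fell of 34 tested) rose in Mup21, Selenbp2 and Ugt2b1 (Mup21 1.30, Selenbp2 1.10 and Ugt2b1 0.41). Of thyroid hormone genes 1 rose and 2 fell of 14 tested, Ttr up and the corepressor Ncor1 and Gpd2 down (−0.39 and −0.45). Of circulating liver factors 3 rose and 1 fell of 24 tested: Gdf15, a stress hormone that curbs appetite, stood at 4.57, 2.28, 2.56 and 2.36 CPM in control daughters. BPA daughters had 11.7, 8.12, 6.22 and 5.18 CPM (log2 change 1.41 ± 0.42, adjusted p = 0.0272), and Angptl6 and Mst1 rose (0.68 and 0.32). Mup21 and Selenbp2 had at least 20% of the exon sequence overlapped by or shared with other genes, so the counts of these genes are uncertain. Ugt2b1 lost its call in 6 of the 8 fits that left out 1 daughter (highest adjusted p 0.162, without BPA 14) and Gpd2 in 6 (0.103, without control 18). Gdf15 lost it in 5 (0.0819, without BPA 1).

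Complement and clotting factors changed in a few members each. C8g, of the membrane attack complex, went from 104 ± 9.48 to 172 ± 33.7 CPM (log2 change 0.72 ± 0.11, adjusted p = 0.000362), and C2, C4bp and Mbl2 rose (C2 0.75, C4bp 0.39 and Mbl2 0.46) while the protease C1rl fell (−0.32; 4 rose and 1 fell of 32 tested). Prothrombin, F2, stood at 1186, 1238, 1154 and 1175 CPM in control daughters. BPA daughters had 1486, 1507, 1570 and 1688 CPM (log2 change 0.40 ± 0.07, adjusted p = 0.000924) and F7, which starts clotting, rose as well (0.43), whereas F9, F11 and F13b fell (F9 −0.30, F11 −0.51 and F13b −0.28; 3 rose and 4 fell of 30 tested). F2 and F9 did not overlap between groups. In the acute phase list 1 rose and 0 fell of 28 tested, the rise being Ttr, and Ahsg did not pass (adjusted p = 0.0945). C2 had at least 20% of the exon sequence overlapped by or shared with other genes, so the counts of this gene are uncertain. Mbl2 lost its call in 7 of the 8 fits that left out 1 daughter (highest adjusted p 0.126, without control 4) and C1rl in 5 (0.135, without control 18). F13b lost it in 1 (0.0552, without BPA 8). In the coagulation list, the 4 members that fell became 2 without BPA 8.

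B2m, the light chain of class I antigen-presenting molecules (chromosome 2, 122147686 to 122153083), fell. It stood at 2589, 2253, 2231 and 2192 CPM in control daughters. BPA daughters had 1156, 1218, 1354 and 1370 CPM, without overlap, and control animal 1 was the highest (log2 change −0.86 ± 0.08, adjusted p = 7.62e-06). The rest of the antigen presentation list did not follow (2 rose and 1 fell of 28 tested): H2-T23, a class I heavy chain, and Psmb10, an immunoproteasome subunit, rose (0.34 and 0.59). Of interferon response genes 2 rose and 2 fell of 39 tested, with Bst2, tetherin, at 31.9, 26.6, 33 and 31.8 CPM in control daughters and 60.3, 58.1, 53.5 and 57.2 CPM in BPA daughters (log2 change 0.90 ± 0.10, adjusted p = 3.54e-05), Oas1g up and the RNA sensor Ddx58 and Ifi27l2b down (Oas1g 0.89, Ddx58 −0.44 and Ifi27l2b −0.82). Of inflammatory signalling 2 rose and 1 fell of 35 tested: Ikbkg, a regulator of NF-kappa B, and Nfkb2 rose and Tlr3 fell (Ikbkg 0.86, Nfkb2 0.62 and Tlr3 −0.47). H2-T23 and Oas1g had at least 20% of the exon sequence overlapped by or shared with other genes, so the counts of these genes are uncertain. Ddx58 lost its call in 7 of the 8 fits that left out 1 daughter (highest adjusted p 0.123, without BPA 8) and Tlr3 in 6 (0.128, without BPA 8). H2-T23 lost it in 5 (0.117, without BPA 14) and Oas1g in 5 (0.0774, without control 18). Ifi27l2b lost it in 1 fit (0.0543, without BPA 14).

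Stress genes were mixed. The inducible chaperone Hspa1b stood at 13, 13.4, 16.4 and 11.2 CPM in control daughters and 36.8, 57.7, 58.9 and 91.1 CPM in BPA daughters (log2 change 2.18 ± 0.60, adjusted p = 0.022) and its partner Dnajb1 at 13.1, 16.7, 16 and 13.1 CPM in control daughters and 32.1, 35.1, 33.9 and 41.5 CPM in BPA daughters (log2 change 1.28 ± 0.22, adjusted p = 0.000953). Both sets of BPA livers lay above the controls, while in sons the changes were −0.73 ± 0.57 and 0.00 ± 0.22. Mitochondrial Hspd1, cytosolic Hspa4 and the small Hspb6 fell (Hspd1 −0.40, Hspa4 −0.32 and Hspb6 −0.88; 4 rose and 3 fell of 37 tested). In the endoplasmic reticulum list (1 rose and 2 fell of 33 tested) the calcium-binding chaperone Calr fell from 627 ± 87.9 to 376 ± 23.9 CPM (log2 change −0.74 ± 0.17, adjusted p = 0.00733), Hsp90b1 fell (−0.41) and Edem1, of protein disposal, rose (0.37). Immediate early genes (1 rose and 3 fell of 30 tested; median log2 change −0.27) included 1 that divided the controls: Nr4a1 stood at 64, 41.3, 1.21 and 2.28 CPM in control daughters. BPA daughters had 2.73, 3.2, 1.78 and 4.07 CPM, so that controls 1 and 4 were high and controls 17 and 18 were as low as the BPA livers. Nr4a2 and Zfp36l1 fell (−1.64 and −0.54). Jund, an AP-1 subunit, rose (log2 change 3.69 ± 0.66, adjusted p = 0.00169) and stood at 3.09 to 4.85 CPM in control daughters and 43.5 to 55.6 CPM in BPA daughters. In control sons it stood at 48.7, 48.1, 72.7 and 2.41 CPM, and in BPA sons at 44 to 52.4 CPM, so that 5 of the 16 livers, all of them controls, were near the low level. Of its exon sequence 52.6% is overlapped by Gm11175, and the part of this overlap in the split was not tested. Of p53 targets 1 rose and 1 fell of 24 tested, Gdf15 up and the repair gene Xpc down (−0.32). Proteasome genes moved both ways in equal number (9 rose and 9 fell of 48 tested), Psmb4 up and Psma4, Psmc1, Psme1 and Psme3 down (Psmb4 0.79, Psma4 −0.60, Psmc1 −0.61, Psme1 −0.41 and Psme3 −0.61). Of autophagy and lysosome genes 8 rose and 3 fell of 43 tested, with the master regulator Tfeb at 3.35, 3.99, 2.37 and 4.02 CPM in control daughters and 6.45, 6.13, 5.19 and 7.43 CPM in BPA daughters (log2 change 0.87 ± 0.19, adjusted p = 0.00402), Atg9a up and Atg3 down (0.59 and −0.40). Hspa1b, Hspd1, Zfp36l1, Jund, Psma4, Psmc1 and Atg9a had at least 20% of the exon sequence overlapped by or shared with other genes, so the counts of these genes are uncertain. Hsp90b1 lost its call in 6 of the 8 fits that left out 1 daughter (highest adjusted p 0.0907, without BPA 14) and Nr4a1 in 6 (0.108, without control 1). Hspa1b lost it in 4 (0.0601, without control 18) and Xpc in 4 (0.0608, without control 17). Zfp36l1 lost it in 3 fits (0.0724, without control 1) and Hspa4 in 2 (0.0567, without control 4). Nr4a2 lost it in 2 (0.0615, without control 4). In the heat shock and chaperones list, the 4 members that rose became 1 without control 1. In the heat shock and chaperones list, the 3 members that fell became 5 without control 1. In the immediate early list, the 3 members that fell became 0 without control 1.

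Clock genes differed widely between animals of 1 group. Dbp, an output of the clock, stood at 25.1, 3.17, 6.77 and 8.34 CPM in control daughters and 1.35, 1.66, 3.11 and 31.7 CPM in BPA daughters, and Per2 at 10.9, 8.4, 6.43 and 5.65 CPM in control daughters and 8.23, 8.77, 8.77 and 21.9 CPM in BPA daughters. BPA animal 14 and control animal 1 were high in both, and BPA animal 14 was lowest in Arntl, at 9.16 CPM against 24.4 to 30.3 in the other three. None of Dbp, Per2, Arntl and Nr1d1 passed (adjusted p from 0.31 to 0.92). Of the core clock 2 rose and 0 fell of 16 tested, Csnk1d, a kinase that phosphorylates PER proteins, at 36.9, 42.6, 42.3 and 41.1 CPM in control daughters and 57.9, 61, 53 and 52.5 CPM in BPA daughters (log2 change 0.46 ± 0.07, adjusted p = 0.000328), and Cry1 with overlap (0.97). Of clock output 2 rose and 1 fell of 19 tested, Tspan4 and Nfil3 up and Alas1 down (1.28 and 0.67). The time of day at which livers were taken is not stated in the labels. Nfil3 lost its call in 7 of the 8 fits that left out 1 daughter (highest adjusted p 0.115, without BPA 8) and Cry1 in 3 (0.0692, without BPA 1).

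Splicing factors fell more often than genes overall. Srsf5, which promotes exon inclusion, stood at 214, 194, 181 and 198 CPM in control daughters. BPA daughters had 70.8, 86.3, 89.2 and 58.4 CPM, with no overlap (log2 change −1.37 ± 0.20, adjusted p = 0.000219). Hnrnpdl stood at 71.5, 94.8, 85.2 and 84.1 CPM in control daughters. BPA daughters had 41.2, 45.8, 43.7 and 30.2 CPM (log2 change −1.06 ± 0.12, adjusted p = 4.18e-05), and Hnrnpr, Hnrnpul1 and Hnrnph2 fell without overlap (Hnrnpr −0.86, Hnrnpul1 −0.63 and Hnrnph2 −0.69). Of the list 3 rose and 24 fell of 56 tested (median log2 change −0.26), and with GC and length corrected 3 rose and 23 fell; summed levels were 4230 to 4690 CPM in controls and 3400 to 3760 CPM in BPA daughters, without overlap. Translation factors fell too (4 rose and 16 fell of 61 tested), with Eif3a from 303 ± 31.8 to 208 ± 12.7 CPM, Eif5b, Eif2ak1 and Eif4e2 down and Eif3i up (Eif5b −0.70, Eif2ak1 −0.54, Eif4e2 −0.41 and Eif3i 0.38). Cytosolic ribosomal proteins moved both ways (30 rose and 15 fell of 83 tested): Rps14 stood at 39.1, 53, 53.9 and 45.1 CPM in control daughters. BPA daughters had 95, 93.8, 88.3 and 98.5 CPM (log2 change 0.97 ± 0.10, adjusted p = 1.03e-05), Rpl37a rose (1.30) and Rpl17 and Rpl23 fell (−0.78 and −0.75), with summed levels of 7180 to 8680 CPM in controls and 8020 to 8310 CPM in BPA daughters. Of aminoacyl-tRNA synthetases 3 rose and 2 fell of 23 tested (Yars 0.44, Farsa 0.41, Aimp1 0.32, Aars −0.49 and Eprs −0.30). Hnrnph2, Rpl37a, Rpl17 and Rpl23 had at least 20% of the exon sequence overlapped by or shared with other genes, so the counts of these genes are uncertain. Farsa lost its call in 5 of the 8 fits that left out 1 daughter (highest adjusted p 0.0939, without BPA 8) and Aimp1 in 4 (0.0649, without BPA 8). In the translation factors list, the 16 members that fell became 10 without control 4. In the aminoacyl-tRNA synthetases list, the 3 members that rose became 1 without control 1.

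Small noncoding RNA and histone genes, which are short, rose more often than the background. Scarna6, a guide RNA of Cajal bodies, stood at 3.96, 3.64, 4.93 and 3.33 CPM in control daughters. BPA daughters had 10.8, 12, 10.8 and 11 CPM (log2 change 1.50 ± 0.18, adjusted p = 4.57e-05), and Scarna2, Scarna10 and Snora74a rose and Rnu11 fell (Scarna2 1.10, Scarna10 2.11, Snora74a 1.35 and Rnu11 −1.42). Of the list 8 rose and 2 fell of 29 tested (median log2 change 0.4), and with GC and length corrected 5 rose and 5 fell. Their host genes did not share this (2 rose and 2 fell of 17 tested): Ptov1 and Snhg8 rose and Ncl and Gas5 fell (Ptov1 0.57, Snhg8 0.54, Ncl −0.68 and Gas5 −0.53). Of histone genes 22 rose and 3 fell of 75 tested (median log2 change 0.31), or 14 rose and 6 fell with the correction. The summed histone level went the other way without overlap, at 1020 to 1080 CPM in controls and 836 to 1000 CPM in BPA daughters. Hist1h4c, a cell cycle histone H4, stood at 13.5, 13.7, 10.9 and 13.1 CPM in control daughters. BPA daughters had 26.8, 31, 28.8 and 28.1 CPM (log2 change 1.16 ± 0.11, adjusted p = 7.51e-06), and H2afz (0.68), Hist1h2br (0.98) and Hist1h4j (0.64) rose. H3f3b, which codes for the replacement histone H3.3 outside the cell cycle, stood at 269, 261, 214 and 253 CPM in control daughters. BPA daughters had 98.2, 105, 119 and 98 CPM (log2 change −1.25 ± 0.12, adjusted p = 7.62e-06). Nuclear long noncoding RNAs (0 rose and 3 fell of 15 tested) fell in Malat1, from 3656 ± 403 to 2811 ± 312 CPM, and in the imprinted Kcnq1ot1 and Airn (−0.62 and −1.16). Zinc finger genes were near the background for falls and under it for rises (13 rose and 39 fell of 319 tested; Zfp740 (1.27), Zfp410 (0.47), Zfp874b (0.59), Zfp143 (−0.79) and Zfp946 (−0.60)), and so were DNA methylation and chromatin enzymes (2 rose and 7 fell of 58 tested), with Trim28 up and the demethylation enzyme Tet2, Mbd2, Hdac2 and Eed down (Trim28 0.40, Tet2 −0.53, Mbd2 −0.35, Hdac2 −0.35 and Eed −0.34). Of cell cycle genes 2 rose and 3 fell of 29 tested: cyclin D3 (Ccnd3) stood at 17.5, 19, 14.4 and 20.1 CPM in control daughters. BPA daughters had 23.4, 29.8, 27.1 and 27.4 CPM (log2 change 0.60 ± 0.13, adjusted p = 0.00369), Pcna rose and Cdk6, Cdkn1b and Rb1 fell (Pcna 0.25, Cdk6 −0.61, Cdkn1b −0.33 and Rb1 −0.29). Scarna10, Snora74a, Rnu11, Hist1h4c, H2afz, Hist1h2br, Hist1h4j, Zfp874b and Pcna had at least 20% of the exon sequence overlapped by or shared with other genes, so the counts of these genes are uncertain. Pcna lost its call in 7 of the 8 fits that left out 1 daughter (highest adjusted p 0.108, without BPA 8) and Rb1 in 7 (0.113, without BPA 14). Snhg8 lost it in 6 (0.106, without BPA 8) and Airn in 6 (0.0952, without control 1). Malat1 lost it in 5 fits (0.112, without control 4). In the small nuclear and nucleolar RNA genes list, the 8 members that rose became 5 without control 18. In the nuclear long noncoding RNAs list, the 3 members that fell became 1 without control 1. In the zinc finger genes list, the 13 members that rose became 8 without control 18. In the zinc finger genes list, the 39 members that fell became 23 without BPA 14.

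Few markers of other liver cells were called. Of sinusoidal endothelial markers 1 rose and 0 fell of 16 tested, the scavenger receptor Stab1 (0.35), and Stab2 and Ptprb did not pass; of Kupffer cell markers 1 rose and 0 fell of 13 tested, which was Slc40a1, and Cd5l did not pass (adjusted p = 0.715). Of stellate markers 0 rose and 0 fell of 15 tested (Reln and Dcn at adjusted p of 0.85 and 0.40), of cholangiocyte markers 1 rose and 0 fell of 8 tested, Tm4sf4 (0.71), with Spp1 not passing. Summed levels were 977 to 1140 CPM in controls and 1020 to 1130 CPM in BPA daughters for endothelium, 480 to 723 CPM in controls and 618 to 857 CPM in BPA daughters for Kupffer cells and 648 to 833 CPM in controls and 665 to 822 CPM in BPA daughters for stellate cells, with overlap in each. Of extracellular matrix genes 1 rose and 0 fell of 34 tested (Col5a1, Col5a1 (0.70)), while Fn1 and Col18a1 did not pass. No lymphocyte (0 rose and 0 fell of 11 tested), neutrophil and monocyte (0 rose and 0 fell of 7 tested; median log2 change −0.42), adipocyte (0 rose and 0 fell of 5 tested) or mesothelial marker (0 rose and 0 fell of 5 tested) was called with edgeR or DESeq2, and 0, 0, 1 and 1 of them had an unadjusted p under 0.05. The most abundant of each list, Cd3g, Cd79b, Lyz2, Ccr2, Cidec, Car3, Gpm6a and Krt8, were not among these (Cd3g −0.15, Cd79b −0.08, Lyz2 0.29, Ccr2 −0.43, Cidec −1.21, Car3 1.01, Gpm6a −0.22 and Krt8 0.04). Lymphocyte markers summed to only 6.23 to 8.65 CPM in controls and 5.1 to 11.2 CPM in BPA daughters. Of erythroid markers 0 rose and 2 fell of 10 tested (median log2 change −0.86): the beta globin gene Hbb-bt stood at 20.5, 8.75, 25.2 and 33.5 CPM in control daughters and 0.492, 0, 0 and 0 CPM in BPA daughters and Bpgm at 18.3, 19.6, 26.4 and 24.8 CPM in control daughters and 14.7, 13.8, 12.8 and 11.2 CPM in BPA daughters (log2 change −0.76 ± 0.13, adjusted p = 0.000916). The erythroid sum overlapped, at 152 to 514 CPM in controls and 174 to 251 CPM in BPA daughters, and the part of blood in the Hbb-bt values was not tested. Lyz2, Krt8 and Hbb-bt had at least 20% of the exon sequence overlapped by or shared with other genes, so the counts of these genes are uncertain. Col5a1 lost its call in 6 of the 8 fits that left out 1 daughter (highest adjusted p 0.127, without BPA 1).

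Most changes of the daughters had the same sign in sons, and the sexes share no control animal. BPA libraries were deeper in sons as well, at 25268010 to 28920065 counts against 21094337 to 23584379 in controls. Depth thus went with exposure in both sexes, and its part in the shared signs was not tested. In sons 2041 genes were called (15.1%), and 1363 genes were called in the same direction in both sexes, which is 49.2% of the daughters' and 66.8% of the sons' calls; 1 gene was called in opposite directions. Of the daughters' calls, 94.7% had the same sign in sons, against 73.3% of all tested genes, as the plot of both sexes shows. Sons had 4 rises and 19 falls in splicing factors, 11 and 6 in complex I and 22 and 13 in cytosolic ribosomal proteins. They had 2 rises and 0 falls in the glutathione list, and 2 and 8 in P450 genes and partners. B2m and Bst2 changed by −1.01 ± 0.08 and 0.90 ± 0.10 in sons. The test of the difference itself called 0 genes with edgeR (lowest adjusted p 0.253; 1019 genes, 7.56%, at an unadjusted p under 0.05) and 36 with DESeq2. Of these 36, 20 were called in daughters and 8 are named here: Gsta2, Ehd4, Plscr1, H3f3b, Jund, Zbtb40, Ccdc117 and Dnajb1, at DESeq2 adjusted p from 0.00278 to 0.0304. Some of those not called in daughters had log2 differences as extreme as 26.05 and −27.86, which cannot be read as sizes of change. With edgeR none of the changes above was shown to differ between the sexes. The lowest p belonged to Ehd4, a membrane trafficking gene, at 12, 11, 11.7 and 12.6 CPM in control daughters and 7.93, 8.39, 8.77 and 8.34 CPM in BPA daughters (log2 change −0.50 ± 0.08, adjusted p = 0.000611), where sons changed by 0.18 ± 0.09 (unadjusted p = 3.63e-05, adjusted p = 0.253 for the difference). Plscr1, an interferon-inducible membrane protein gene, also had opposite signs, −0.53 ± 0.14 in daughters and 0.41 ± 0.14 in sons (unadjusted p = 0.000248, adjusted p = 0.419). The other genes with larger changes in daughters were Ccdc117, Zbtb40 and H3f3b (Ccdc117 0.98, Zbtb40 1.61 and H3f3b −1.25), against −0.05 ± 0.17, 0.61 ± 0.17 and −0.54 ± 0.12 in sons. The genes with smaller changes in daughters were Ptms (−0.31), Usf2 (−0.25), Polr2j (−0.34), Ap1b1 (0.30) and Polg (0.26), against −0.67 ± 0.09, −0.49 ± 0.07, −0.58 ± 0.08, 0.51 ± 0.07 and 0.46 ± 0.07 in sons. Of the genes described above, Gls2 changed by 0.13 ± 0.24 in sons (unadjusted p = 0.00482, adjusted p = 0.508), Hsd11b1 by 0.05 ± 0.13 (unadjusted p = 0.00433, adjusted p = 0.5) and Dnajb1 by 0.00 ± 0.22 (unadjusted p = 0.000913, adjusted p = 0.493). Gsta2 changed by −0.61 ± 0.29 and Cyp3a11 by −0.30 ± 0.18 in sons, both opposite in sign to daughters (unadjusted p = 0.000242, adjusted p = 0.419 for Gsta2 and unadjusted p = 0.00218, adjusted p = 0.498 for Cyp3a11). Ptms lost its call in 3 of the 8 fits that left out 1 daughter (highest adjusted p 0.0709, without BPA 9) and Usf2 in 1 (0.0546, without control 4).

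**Figure D5:**
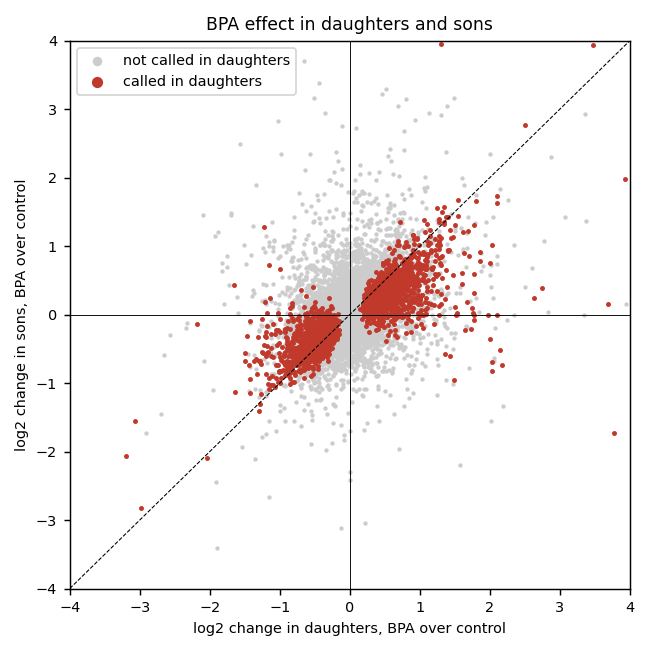
Log2 change, BPA over control, of each tested gene in daughters (horizontal) and sons (vertical), with genes called in daughters in red, the others in grey and the line of equal change dashed. Called genes lie mostly in the lower left and upper right; 40 genes fall outside the axes.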

How the data were processed

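The authors deposited 1 table of estimated (expected) counts per gene, with 1 column per liver. The submitters' processing notes name GRCm38 (mm10) as the build and, without versions, HISAT, StringTie, FastQC and DESeq2 as tools. The deposited expected counts were whole numbers and were used as they stood. Their low values piled up at multiples of about 6.46.

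Genes were kept by edgeR's filter (13482 of 24062) and libraries were scaled by TMM. A robust quasi-likelihood model with 4 group means was fitted to all 16 libraries (R 4.3.3, edgeR 4.0.16) and was tested on simulated data. The contrasts were BPA minus control in females, and that change minus the same change in males. Tests were two-sided, with Benjamini-Hochberg adjustment over all tested genes and a threshold of 0.05. Library totals of the daughters ran from 19360584 to 32242553 counts. Gene positions, lengths and overlaps came from GENCODE M21 (GRCm38), and promoters from RefSeq.

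The members and the 74 gene lists were chosen with earlier results of these data known. Named genes followed a rule. Ranked parts took called genes of at least 5 CPM, under 20% overlapped or shared in sequence, without predicted-gene symbols: the 10 of lowest p and the 8 most abundant in each direction, and the 5 with larger and 5 with smaller changes in daughters than in sons by interaction p. Each list of 3 or more tested genes gave up to 5 called members of lowest p, without those limits, and its 2 most abundant where fewer than 2 were called. A further set was named in every case. A few genes that the rule names are not reported here. Alternatives were other scalings (RLE, upper quartile), filters, DESeq2 1.42.0, limma-voom (limma 3.58.1), counts divided by the step, thinned libraries, females alone, each daughter left out in turn and, added after seeing the data, a GC and length correction.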

Additional observations from a re-analysis of the deposited data

Results flagged for a closer look

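In 38 of the 644 groups of 4 daughters examined (5.9%), 1 daughter stood apart from the other 3 of her group by Dixon's criterion at the 95% level. Chance alone marks about 1 in 20 such groups. Values are TMM-scaled CPM.

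BPA daughter 14 was the high one for Dbp, a clock output factor, at 31.7 against 1.35 to 3.11 in the other BPA daughters, and for Per2, a clock repressor, at 21.9 against 8.23 to 8.77. She was also high for Car3 at 1191 (276 to 359 in the others), Col18a1 at 1034, Gckr at 94.6, Pemt at 173, Ndufc2 at 45 and Mrpl41 at 14.1, and low for Rnu11 at 1.21. Of these genes Dbp, Per2, Car3 and Col18a1 were not called.

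BPA daughter 1 was low for Hsd17b4, a peroxisomal beta-oxidation enzyme, at 572 against 780 to 821, and for Baat at 207, Dld at 115, Ptprb at 242 and Tmem126b at 9.28. She was high for Kcnq1ot1 at 89 (51.6 to 57.8), Slc40a1 at 232, and Hbb-bt at 0.492, which stood at 0 in the other BPA daughters. BPA daughter 8 was high for Ap1b1 at 62.5 and Hspb6 at 4.36 and low for Shfm1 at 35. BPA daughter 9 was low for Dlat at 49.8 and Ptov1 at 19.5.

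Control daughter 1 was high for Cyp2d40 at 30.1 (18.1 to 19.8 in the other controls), Gdf15 at 4.57 (2.28 to 2.56), B2m at 2589, C2 at 57.2 and C8g at 119. She was low for the chaperone Calr at 496 (661 to 681), Hsd17b4 at 913, Gstm1 at 341, Usmg5 at 88.1 and 2010107E04Rik at 20.5. Control daughter 17 was high for Ifi27l2b at 19.2 (8.67 to 9.49), Rpl39 at 27.7 and Rspo3 at 17.8. Control daughter 18 was high for Ttr at 3254, and control daughter 4 was high for Zfp874b at 10.5 and low for Dgat2 at 167.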

How the results depend on the processing

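Against 1366 rises and 1407 falls, the counts were 1371 and 1436 with RLE size factors, 1421 and 1391 with upper quartile scaling, 1386 and 1123 without the filter, 1598 and 1664 with DESeq2, 1446 and 1503 with limma-voom, 1149 and 1495 with the GC and length correction added after seeing the data, and 1249 and 1147 with females alone. Leaving out each daughter in turn gave 1032 to 1259 rises and 1070 to 1276 falls. The count of genes whose change differed between daughters and sons was 0 with edgeR, 36 with DESeq2 and 0 to 1 with a daughter left out. The ratio of library totals ran from 1.28 to 1.43 and that of genes with a count from 1.03 to 1.04 with a daughter left out, where 3 against 4 cannot reach 0.05 in the exact test. Of 284 called genes named, none changed sign under these settings; 27 to 47 lost the call with a daughter left out, 34 with females alone, 23 with the GC and length correction and 16 without the filter. Signs changed only for 19 named genes that were not called. These were, on the log2 scale, Cd79b at 0.02 with limma-voom; Cyp7a1 at 0.00 with upper quartile scaling; Cyp7a1 at 0.02 and Ptprb at 0.01 without the filter; Cyp7a1 at 0.01 and Ptprb at 0.00 with females alone; and, with the GC and length correction, Col18a1 at −0.01, Cyp7a1 at 0.07, Krt8 at −0.09, Ptprb at 0.01 and Srebf2 at −0.11. With each daughter left out in turn, the values of the genes that changed sign ran as follows: Alb −0.07 to 0.01, Arntl −0.40 to 0.03, Cd3g −0.32 to 0.15, Cd5l −0.05 to 0.34, Cd79b −0.34 to 0.13, Cyp1a2 −0.03 to 0.41, Cyp7a1 −0.21 to 0.22, Dbp −2.40 to 0.63, Fasn −0.09 to 0.36, G6pc −0.03 to 0.27, Gpm6a −0.67 to 0.32, Insig2 −0.03 to 0.26, Krt8 −0.03 to 0.17, Ptprb −0.04 to 0.03, Reln −0.03 to 0.10, Spp1 −0.52 to 0.18, Srebf2 −0.05 to 0.09 and Ugt1a1 −0.06 to 0.14. The cause was not tested. No paired analysis was possible because the groups of daughters share only the replicate number 1.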
